A study of Mus musculus with 2 samples.

Results

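The replication-dependent histone genes were examined in single cells from MC38 tumours of wild-type (WT) and Ifnar1-SA mice. They were taken as all genes whose symbol starts with Hist1h, Hist2h, Hist3h or Hist4h and that had at least 1 UMI (a uniquely tagged captured RNA molecule) in the barcodes kept. They were thus chosen by their symbol and, as the only measured value, by having a UMI. This gave 64 genes of the 20932 genes with a UMI, out of 32285 genes listed. They comprised 6 H1, 17 H2A, 16 H2B, 12 H3 and 13 H4 genes. A further 3 symbols, Hist1h2aa, Hist1h2ba and Hist1h2bq, had no UMI in a kept barcode, and the members just inside the rule were Hist1h1t with 3 UMIs, Hist2h2aa2 with 4 and Hist1h2ah with 7 over both libraries. The WT library had a UMI of 63 of the 64 genes and the Ifnar1-SA library of all 64.

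H2A, H2B, H3 and H4 are the core histones around which DNA is wrapped in the nucleosome, and H1 is the linker histone that binds where DNA enters and leaves it. Replication-dependent histone genes lie in clusters, are transcribed mainly in S phase through NPAT and E2F/cyclin E-CDK2 activity, and encode the bulk of the histones laid onto newly copied DNA. Their mRNAs are known for ending in a conserved stem-loop, bound by SLBP, where other mRNAs carry a poly(A) tail. The 10x method as commonly run primes on poly(A), so that the counts below may cover only a fraction of the histone mRNA, and whether the captured molecules carried a tail was not tested.

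The study inoculated MC38 cells, a mouse colon adenocarcinoma line, into untreated mice that were either wild-type or Ifnar1-SA, a genotype named for Ifnar1, which codes for a type I interferon receptor subunit; the labels do not spell out SA. Cells infiltrating the tumour were taken on day 14 and made into 1 10x library per genotype, so that there is no spread between replicates and no test between genotypes. By the labels the cells are immune cells from the tumour in one field and CD8 T cells in another, and the labels give neither the number or age of the animals nor a sort. The WT and Ifnar1-SA libraries held 55497066 and 62732220 UMIs. Barcodes were kept from 1000 UMIs and 500 genes upward if no more than 10% of their UMIs were mitochondrial, which left 4058 and 5001 of them, with median depths of 8016.5 and 7176 UMIs; 7 barcode sequences occurred among the kept barcodes of both libraries.

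Cells were compared within 4 marker gates, which come from the same libraries and overlap. The CD8 T gate (at least 2 UMIs of Cd3e, Cd3g and Trac and at least 2 of Cd8a and Cd8b1) held 1155 WT and 883 Ifnar1-SA cells. The regulatory T cell (Treg) gate (the same T cell genes and at least 1 UMI of Foxp3) held 457 and 751 cells. The macrophage gate (at least 20 UMIs of the complement genes C1qa, C1qb and C1qc) held 1613 and 2327 cells. The fourth gate (at least 10 UMIs of Rhox5, Tm4sf1 and Sdc2) held 196 and 209 cells and was proposed as tumour-like, but of 6 epithelial markers all 6 were at 0 in WT and 4 at 0 in Ifnar1-SA, while 5 fibroblast markers summed to 2753 and 2315 CPM (UMIs of a gene per 1000000 UMIs of that gate and library), so it is called by its 3 genes here. RNA of the C1q genes was also present in the T cell gates, with sums of 3037 (WT) and 4818 CPM (Ifnar1-SA) for CD8 T and of 4309 and 5769 CPM for Treg. Of the CD8 T cells 12.4% in WT and 20.6% in Ifnar1-SA also met another gate, and of the Treg cells 24.7% and 32.9%.

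All 64 genes were found in the mouse annotation GENCODE M21 of the mm10 genome. The large cluster on chromosome 13 holds 51 of them, between 21715763 and 23764406. Chromosome 3 holds 10, between 96219865 and 96270132, chromosome 11 holds 2 (58948920 to 58956830) and chromosome 6 holds 1, Hist4h4 (136801553 to 136804415). The histone stem-loop motif was searched as 16 bases of which 5 may be any base, over the whole length of annotated transcripts. It was found on the gene's own strand in 44 of the 64, against 22 of 21837 other protein-coding genes (0.101%). Stem-loops of 7 genes described in the results, with at least 1 per class, are given here with the gene's span and the stem-loop in capitals, read 5′ to 3′ on the gene's strand, because both the loop and the length of transcript annotated beyond it differ among copies.
Hist1h2ae, chr13:23570517-23571220, minus strand: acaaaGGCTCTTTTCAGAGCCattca
Hist1h2ap, chr13:21833026-21833507, minus strand: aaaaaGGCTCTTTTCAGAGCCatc
Hist3h2a, chr11:58954685-58956830, plus strand: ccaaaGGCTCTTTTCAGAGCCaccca
Hist1h2bj, chr13:22043214-22043676, plus strand: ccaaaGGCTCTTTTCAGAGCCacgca
Hist1h1c, chr13:23738808-23740367, plus strand: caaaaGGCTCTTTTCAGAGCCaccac
Hist1h3c, chr13:23744973-23745602, minus strand: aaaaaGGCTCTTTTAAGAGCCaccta
Hist1h4i, chr13:22040636-22041362, minus strand: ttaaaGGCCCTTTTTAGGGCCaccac
The 16 stem-loop bases are identical in Hist1h2ae, Hist1h2ap, Hist3h2a, Hist1h2bj and Hist1h1c. The annotated transcript goes on for only 3 bases past the loop in Hist1h2ap and for 23 in Hist1h2bj, but for 151 in Hist1h2ae, 330 in Hist1h4i, 840 in Hist1h1c and 1643 in Hist3h2a. In all, 22 of the 44 extend over 100 bases past the loop. Hist1h2bc, a gene of 2 exons at chr13:23684199-23692908, and Hist1h1b had no match. A missing match concerns the annotated transcripts only, some of which are as short as 312 bases. Whether a loop lies beyond their annotated ends was not tested.

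The copies are also close in sequence, which limits how far single genes can be told apart. Of the 64 genes, 60 shared at least 1 stretch of 50 bases with another gene and 31 shared more than 50% of such stretches. Hist1h2ae shared 43.2% and Hist1h2ap 93.1%, so that the counts of Hist1h2ap above all are uncertain as to copy. The read length and the counting of reads that match several genes are unknown from the sources used here.

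Upstream sequence was available from RefSeq (GRCm38.p6, 250 bases before to 50 after the start) for 59 members. On either strand, CCAAT occurred in 50 of these 59 (37.4% of all 32851 promoters), TATAA in 46 (24.9%) and the octamer ATTTGCAT in 11 (1.74%). CCAAT was found in all 17 H2A, 14 H2B, 10 H3 and 6 H1 promoters but in 3 of 12 H4 promoters. The octamer was found in 6 of 17 H2A and 5 of 14 H2B promoters and in no other class, and its reverse complement ATGCAAAT may be read in the sequence of Hist1h2ae. The windows of the 2 H2A genes that the comparisons turn on are printed on the gene's strand, and capitals mark the 3 motifs on either strand.
Hist1h2ae, chr13:23571171-23571470, minus strand: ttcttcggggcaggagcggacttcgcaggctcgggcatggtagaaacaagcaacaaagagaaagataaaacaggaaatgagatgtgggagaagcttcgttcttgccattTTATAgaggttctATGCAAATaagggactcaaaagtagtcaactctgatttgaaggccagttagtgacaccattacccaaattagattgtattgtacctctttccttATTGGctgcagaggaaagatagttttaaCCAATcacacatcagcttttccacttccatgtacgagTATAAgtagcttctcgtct
Hist1h2ap, chr13:21833426-21833725, minus strand: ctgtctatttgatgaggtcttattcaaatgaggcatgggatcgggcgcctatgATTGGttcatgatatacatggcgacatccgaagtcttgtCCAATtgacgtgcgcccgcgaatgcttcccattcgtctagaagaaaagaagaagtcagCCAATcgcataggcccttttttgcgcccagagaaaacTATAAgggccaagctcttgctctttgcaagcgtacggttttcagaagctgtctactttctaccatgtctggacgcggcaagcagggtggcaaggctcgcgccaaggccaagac
The Hist1h2ae window holds an octamer that starts 128 bases before the annotated start, and Hist1h2ap holds none. The TATAA on Hist1h2ae's own strand starts at base 32 after the annotated start. Both lie head to head with an H2B gene, as do 10 H2A/H2B pairs with starts within 500 bases of each other: 176 bases separate Hist1h2ae from Hist1h2bg and 236 separate Hist1h2ap from Hist1h2br. A match describes these letters only.

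A few copies carried most histone UMIs. Hist1h2ae had 5500 UMIs in kept barcodes of both libraries (12.7% of all histone UMIs), Hist1h4i 5123, Hist1h2bc 4481, Hist1h1c 3018, Hist1h1e 2492 and Hist3h2a 2399, and these 6 together held 53.2%. The next were Hist1h1b with 2397, Hist1h2ap with 2075, Hist1h4d with 1628 and Hist1h3c with 1477. These are shares of captured molecules, not levels per length, and genes annotated far past their stem-loop stand next to genes that end at it. Which copy led its class differed between gates. Hist1h4i held the most H4 UMIs in every gate and library, from 48.9% in WT CD8 T cells to 79.4% in the Ifnar1-SA Rhox5/Tm4sf1/Sdc2 gate. Hist1h2bc held 28.3% of H2B UMIs in WT CD8 T cells but 68.5% in the WT Rhox5/Tm4sf1/Sdc2 gate, and in WT Treg cells Hist1h2bj led with 27.3%. In the macrophage gate of the Ifnar1-SA library Hist3h2a led H2A with 33.3%, where Hist1h2ae led in WT with 38.9%.

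Histone transcripts were lower in the Ifnar1-SA than in the WT library in each gate. In CD8 T cells the 64 genes summed to 602 CPM from 6450 UMIs in the WT library and 368 CPM from 2866 UMIs in the Ifnar1-SA library, which is a log2 ratio of Ifnar1-SA to WT of -0.71 with a 95% interval of -0.77 to -0.65. In Treg cells the sums were 587 and 390.2 CPM (log2 ratio -0.59, -0.66 to -0.52), and in the macrophage gate 381 and 304 CPM (-0.32, -0.37 to -0.28). In the Rhox5/Tm4sf1/Sdc2 gate they were 714 and 489 CPM (-0.55, -0.60 to -0.49). All intervals here are exact conditional binomial intervals of 2 counts. They cover counting error only, not the spread between cells of a library or the difference between animals. The gap was thus wider in the T cell gates than in the macrophage gate on these libraries, where the median ratio over all genes lay between -0.02 and 0.08.

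Single genes were called when they had at least 30 UMIs over both libraries and an interval wholly outside 1.5-fold. In CD8 T cells 5 of the 44 histone genes with enough UMIs were called lower in Ifnar1-SA (Hist1h2ae, Hist1h2ap, Hist1h2bj, Hist1h3c and Hist1h4c), beside 1.17% of all genes, and 0 were called higher, beside 2.89%. In Treg cells 2 of 35 were called lower, Hist1h2ae and Hist1h2ap (0.603% of all genes), and 0 higher (1.31%). In the macrophage gate the same 2 of 54 were called lower (0.891%) and 0 higher (1.16%). In the Rhox5/Tm4sf1/Sdc2 gate 5 of 41 were called lower, Hist1h1b, Hist1h1e, Hist1h2ae, Hist1h2ap and Hist1h3b (0.803%), and 0 higher (0.467%). The median log2 ratio of the histone genes with enough UMIs was -0.48 in CD8 T, -0.56 in Treg, -0.17 in the macrophage gate and -0.67 in the Rhox5/Tm4sf1/Sdc2 gate, against 0.02, -0.02, 0.08 and 0.04 over all genes. The 20, 29, 10 and 23 members with fewer UMIs are not in these counts. With each cell thinned to 2000 UMIs, 2 of 13 genes (CD8 T), 1 of 10 (Treg), 1 of 19 (macrophage gate) and 0 of 5 (Rhox5/Tm4sf1/Sdc2 gate) were called lower, beside 0.547%, 0.329%, 0.722% and 0.25% of all genes; the calls were Hist1h2ap in the first 3 gates and Hist1h2ae in CD8 T. With an interval outside 2-fold in place of 1.5-fold, the calls were Hist1h2ae and Hist1h2ap in CD8 T and the Rhox5/Tm4sf1/Sdc2 gate (0.44% and 0.309% of all genes), Hist1h2ap in Treg (0.278%) and 0 genes in the macrophage gate (0.421%).

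**Figure D1:**
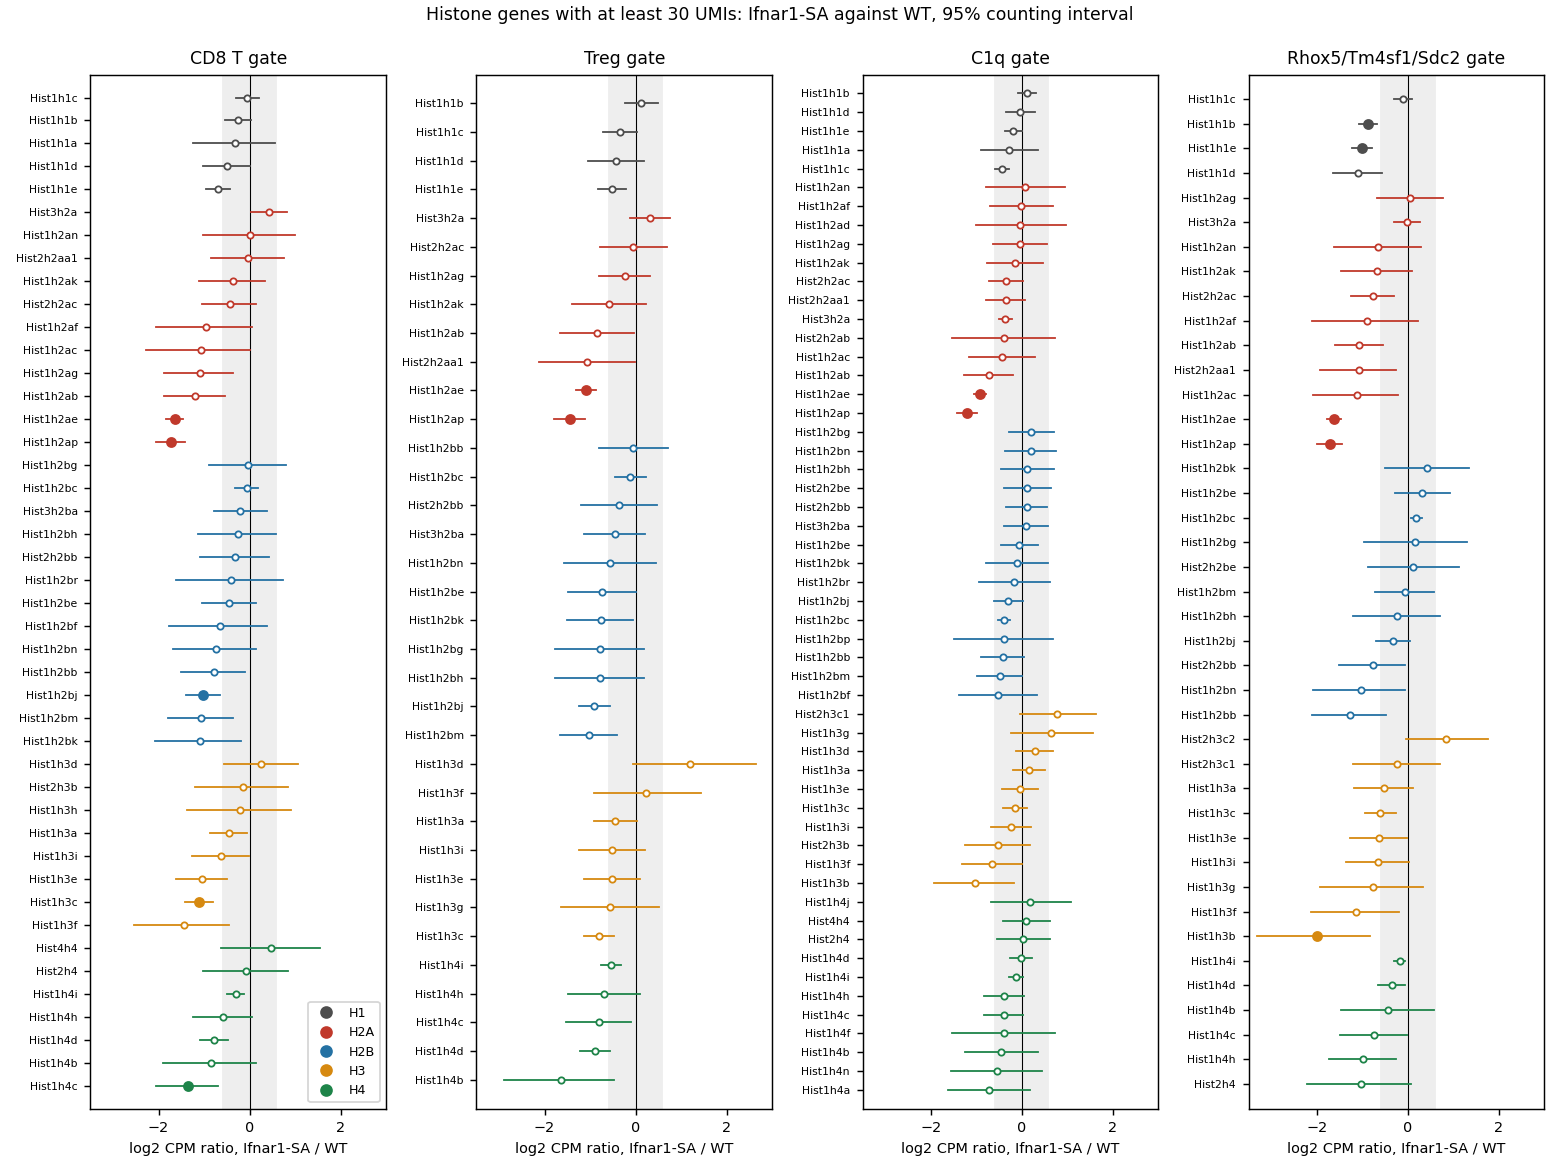
Log2 ratio of Ifnar1-SA to WT CPM (x axis) for each histone gene with at least 30 UMIs (y axis), 1 panel per gate, coloured by class, with 95% counting intervals; the grey band is 1.5-fold and filled points have intervals wholly outside it. Most points lie left of 0 (40 of 44 in CD8 T, 31 of 35 in Treg, 39 of 54 in the macrophage gate, 34 of 41 in the Rhox5/Tm4sf1/Sdc2 gate), and Hist1h2ae and Hist1h2ap lie left of the band in each panel.

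H1 linker genes had the smallest gap of the classes in the T cell gates, and their own widest gap, over all cells, in the Rhox5/Tm4sf1/Sdc2 gate. Their sum was 106 (WT) and 82.7 CPM (Ifnar1-SA) for CD8 T cells (log2 ratio -0.35, -0.50 to -0.21), 88.8 and 72.1 CPM for Treg (-0.30), 77.2 and 67.4 CPM for the macrophage gate (-0.20) and 155 and 97.1 CPM for the Rhox5/Tm4sf1/Sdc2 gate (-0.67, -0.78 to -0.56). Hist1h1b, which encodes the H1.5 linker histone, stood at 24.7 and 20.7 CPM in CD8 T, 21 and 22.9 in Treg, 16.3 and 17.8 in the macrophage gate, and 58.7 and 31.9 CPM in the Rhox5/Tm4sf1/Sdc2 gate. Only the interval of the last (log2 ratio -0.88, -1.07 to -0.69) lay outside 1.5-fold. In the 29 WT and 24 Ifnar1-SA cells of that gate with Xist and no Y-linked UMIs, Hist1h1b was at 0.09 (-0.54 to 0.72) and the H1 sum at -0.35 (-0.70 to -0.0031). These are a small part of the 196 and 209 cells of the gate. Whether they are the same kind of cell as the rest was not tested. Hist1h1e, which encodes H1.4, had the same order: 38.6 and 23.9 CPM in CD8 T (-0.69, -0.95 to -0.44), 33.8 and 23.7 in Treg, 19.2 and 16.9 in the macrophage gate, and 45.3 and 22.6 CPM in the Rhox5/Tm4sf1/Sdc2 gate (-1.0, -1.23 to -0.78). Hist1h1c, which encodes H1.2 and has 840 bases annotated past its stem-loop, was close in both libraries in CD8 T, at 30.4 and 29.4 CPM (-0.05, -0.30 to 0.20). It stood at 22.5 and 17.6 CPM in Treg, 32.9 and 24.5 in the macrophage gate (-0.43, -0.58 to -0.28) and 40.9 and 38.0 in the Rhox5/Tm4sf1/Sdc2 gate.

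H2A had the widest gap of the 5 classes in each gate. Its sum was 206 (WT) and 87.8 CPM (Ifnar1-SA) for CD8 T (log2 ratio -1.23, -1.36 to -1.11), 168 and 98.7 CPM for Treg (-0.77, -0.91 to -0.63), 128 and 81.4 CPM for the macrophage gate (-0.66, -0.74 to -0.58), and 227 and 94.8 CPM for the Rhox5/Tm4sf1/Sdc2 gate (-1.26, -1.37 to -1.15). Much of this was Hist1h2ae and Hist1h2ap: without them the other 15 H2A genes gave -0.37 (-0.58 to -0.16), -0.10 (-0.33 to 0.14), -0.33 (-0.44 to -0.22) and -0.49 (-0.67 to -0.31) in the same order.

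Hist1h2ae encodes a canonical H2A. It stood at 112 CPM (1205 UMIs, WT) and 36.0 CPM (280 UMIs, Ifnar1-SA) in CD8 T cells, giving a log2 ratio of -1.64 (-1.84 to -1.46). In Treg cells it stood at 78.1 and 36.6 CPM (-1.09, -1.32 to -0.87), in the macrophage gate at 49.96 and 26.6 CPM (-0.91, -1.05 to -0.78) and in the Rhox5/Tm4sf1/Sdc2 gate at 127 and 41.2 CPM (-1.63, -1.78 to -1.47). Thinned to 2000 UMIs per cell it gave -1.54 (-2.05 to -1.06), -0.43 (-1.09 to 0.25), -0.61 (-1.0 to -0.21) and -0.83 (-1.76 to 0.06) in the same order, so that only the first stayed outside 1.5-fold. The WT levels ranged widely over the gates while the Ifnar1-SA levels lay between 26.6 and 41.2 CPM. Hist1h2ap, also a canonical H2A gene, stood at 43.7 and 13.1 CPM in CD8 T (-1.74, -2.06 to -1.42), 38.8 and 14.2 CPM in Treg (-1.45, -1.80 to -1.10), 20.7 and 8.94 CPM in the macrophage gate (-1.21, -1.43 to -0.99), and 42.9 and 13.1 CPM in the Rhox5/Tm4sf1/Sdc2 gate (-1.71, -1.99 to -1.44). Its thinned values were -1.98, -2.35, -1.45 and, in the Rhox5/Tm4sf1/Sdc2 gate, -1.36 (-3.21 to 0.25).

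The pair stood in a similar ratio to each other in both libraries, with intervals that overlapped in each gate. There were 2.57 Hist1h2ae UMIs per Hist1h2ap UMI in WT CD8 T cells (2.31 to 2.87) and 2.75 in Ifnar1-SA (2.18 to 3.48), 2.01 and 2.57 in Treg, 2.42 and 2.97 in the macrophage gate, and 2.97 and 3.15 in the Rhox5/Tm4sf1/Sdc2 gate. As a share of all histone UMIs the pair made up 25.9% in WT and 13.3% in Ifnar1-SA CD8 T cells, 19.9% and 13.0% in Treg, 18.5% and 11.7% in the macrophage gate, and 23.9% and 11.1% in the Rhox5/Tm4sf1/Sdc2 gate. Without the pair the sum of the other 62 genes had log2 ratios of -0.48 (-0.55 to -0.41), -0.47 (-0.55 to -0.39), -0.21 (-0.25 to -0.16) and -0.32 (-0.38 to -0.27), lower in the Ifnar1-SA library but inside 1.5-fold. The pair was set apart after its values were seen, so that a smaller gap in the rest follows partly from that choice.

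Their head-to-head H2B neighbours did not show the same gap when all kept barcodes were summed. Over all kept barcodes, where 3 of 59 genes were called lower (Hist1h2ab, Hist1h2ae and Hist1h2ap, beside 1.13% of all genes) and 0 higher (1.28%), Hist1h2ae had 3868 WT and 1632 Ifnar1-SA UMIs (log2 ratio -1.41, -1.50 to -1.33), while Hist1h2bg, 176 bases away, had 124 and 140 UMIs (0.01, -0.35 to 0.37). Hist1h2ap had 1518 and 557 UMIs (-1.61, -1.76 to -1.47), while Hist1h2br had 65 and 57 (-0.36, -0.89 to 0.18). The H2B counts are small, but in these sums over all kept barcodes their intervals do not reach those of the H2A genes. Hist1h2br shared 88.7% of its 50-base stretches with other genes and Hist1h2bg 49.7%, so that these copies are uncertain too. In cells of the 4 gates called cycling by the rule given below, Hist1h2br stood at 2.98 CPM (53 UMIs, WT) and 1.76 CPM (28 UMIs, Ifnar1-SA). There Hist1h2bg stood at 4.33 CPM (77 UMIs) and 4.96 CPM (79 UMIs).

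Hist3h2a, an H2A gene outside the chromosome 13 cluster with 1643 annotated bases past its stem-loop, was placed differently. It stood at 10.5 CPM (WT) and 14.0 CPM (Ifnar1-SA) in CD8 T (log2 ratio 0.42, 0.03 to 0.82) and at 13.1 and 16.3 CPM in Treg (0.31, -0.13 to 0.76). In the macrophage gate it stood at 34.9 and 27.1 CPM (-0.37, -0.51 to -0.22) and in the Rhox5/Tm4sf1/Sdc2 gate at 18.9 and 18.7 CPM (-0.02, -0.31 to 0.26). None of these intervals lay wholly outside 1.5-fold.

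**Figure D2:**
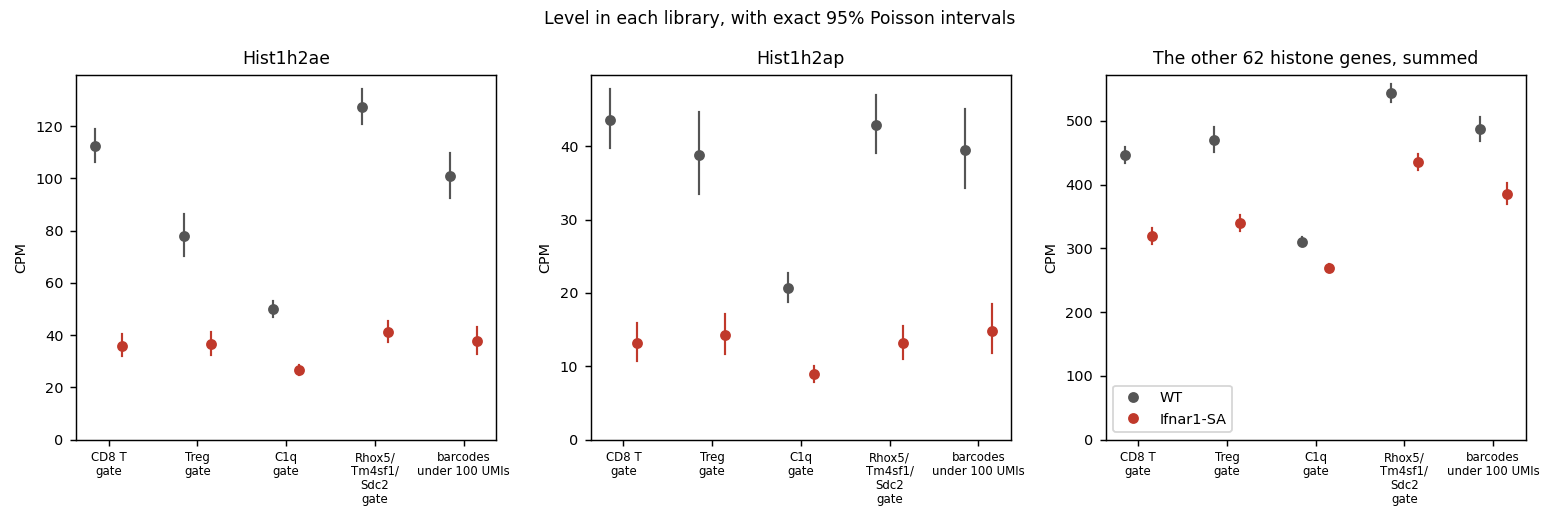
CPM (y axis) of Hist1h2ae, Hist1h2ap and the sum of the other 62 histone genes in the WT and Ifnar1-SA libraries, in each gate and in barcodes with under 100 UMIs (x axis); points are single libraries and bars exact 95% Poisson intervals. Hist1h2ae ranges from 49.96 to 127 CPM in the WT gates and from 26.6 to 41.2 CPM in the Ifnar1-SA gates, and the other 62 genes show a smaller gap.

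H2B was lower in the Ifnar1-SA library in 3 gates and level in the fourth. Its sum was 100.5 (WT) and 73.1 CPM (Ifnar1-SA) for CD8 T (log2 ratio -0.46, -0.61 to -0.31), 119 and 79.7 CPM for Treg (-0.58, -0.75 to -0.42) and 81.4 and 68.8 CPM for the macrophage gate (-0.24, -0.34 to -0.15), but 132 and 137 CPM for the Rhox5/Tm4sf1/Sdc2 gate (0.05, -0.06 to 0.16). The H2B copies differed among themselves. Hist1h2bj stood at 21.4 and 10.5 CPM in CD8 T (-1.02, -1.40 to -0.65), 32.6 and 17.3 in Treg (-0.91, -1.25 to -0.57), 7.42 and 6.03 in the macrophage gate, and 12.8 and 10.2 CPM in the Rhox5/Tm4sf1/Sdc2 gate. Hist1h2bc, the 2-exon copy with no stem-loop match, stood at 28.5 and 27.2 CPM in CD8 T (-0.06, -0.32 to 0.19), 24.9 and 22.9 in Treg, 42.0 and 32.0 in the macrophage gate (-0.39, -0.52 to -0.26), and 90.7 and 103 CPM in the Rhox5/Tm4sf1/Sdc2 gate (0.18, 0.06 to 0.31). It was thus the gene behind most H2B UMIs of the last gate. In the Xist-only cells of that gate the H2B sum gave -0.29 (-0.57 to -0.02).

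H3 was lower in Ifnar1-SA in the T cell gates and the Rhox5/Tm4sf1/Sdc2 gate. Its sum was 78.8 and 46.3 CPM in CD8 T (-0.77, -0.95 to -0.59), 78.7 and 56.0 CPM in Treg (-0.49, -0.69 to -0.29), 34.8 and 33.6 CPM in the macrophage gate (-0.05, -0.19 to 0.09), and 44.8 and 30.1 CPM in the Rhox5/Tm4sf1/Sdc2 gate (-0.57, -0.78 to -0.37). Hist1h3c, a canonical H3 gene, stood at 32.8 and 15.2 CPM in CD8 T (-1.11, -1.42 to -0.81), 33.8 and 19.4 in Treg (-0.80, -1.13 to -0.47), 9.86 and 8.87 in the macrophage gate (-0.15, -0.42 to 0.11), and 16.9 and 11.1 CPM in the Rhox5/Tm4sf1/Sdc2 gate (-0.61, -0.95 to -0.27). Its level was therefore nearly the same in both libraries in the macrophage gate alone of these 4. In the Xist-only cells of the Rhox5/Tm4sf1/Sdc2 gate the H3 sum gave 0.03 (-0.54 to 0.61). Hist1h3b rested on few molecules: 31 WT and 8 Ifnar1-SA UMIs in the Rhox5/Tm4sf1/Sdc2 gate (-1.99, -3.32 to -0.84).

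H4 followed H2B and H3 in the T cell gates. Its sum was 111 and 78.4 CPM in CD8 T (-0.50, -0.64 to -0.36), 132 and 83.6 CPM in Treg (-0.66, -0.82 to -0.50), 59.2 and 53.4 CPM in the macrophage gate (-0.15, -0.26 to -0.04), and 155 and 130.3 CPM in the Rhox5/Tm4sf1/Sdc2 gate (-0.25, -0.35 to -0.15). In the Xist-only cells of that gate it gave 0.10 (-0.20 to 0.39). Thinned to 2000 UMIs per cell, H4 gave -0.17 (-0.51 to 0.17) in CD8 T and 0.06 (-0.23 to 0.35) in the macrophage gate, which with equal weight per cell gave 0.04. Hist1h4i, the copy with the most H4 UMIs, stood at 54.2 and 43.8 CPM in CD8 T (-0.31, -0.50 to -0.11), 70.8 and 48.5 in Treg (-0.55, -0.76 to -0.33), 29.4 and 26.9 in the macrophage gate, and 117 and 103 CPM in the Rhox5/Tm4sf1/Sdc2 gate (-0.18, -0.30 to -0.07). The second H4 copy, Hist1h4d, showed a wider gap in the T cell gates, at 29.0 and 17.0 CPM in CD8 T (-0.77, -1.08 to -0.48) and 35.8 and 19.3 CPM in Treg (-0.89, -1.22 to -0.57). It stood at 11.3 and 11.1 CPM in the macrophage gate and at 19 and 14.8 CPM in the Rhox5/Tm4sf1/Sdc2 gate. Hist1h4c, a less captured copy, had 88 WT and 25 Ifnar1-SA UMIs in CD8 T cells (-1.35, -2.06 to -0.70).

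Because these genes are known for S phase expression, cells were also divided by 2 genes that are not histones: a cell was called cycling when Mki67 and Top2a, markers of proliferating cells, had at least 2 UMIs together. Cycling cells made up 29.7% of WT CD8 T cells (27.1 to 32.4%, Clopper-Pearson interval) and 20.3% of Ifnar1-SA CD8 T cells (17.7 to 23.1%). The shares were 35.4% (31.1 to 40.0%) and 25.6% (22.5 to 28.8%) in Treg, 17.9% and 16.5% in the macrophage gate, and 50.5% and 45.5% in the Rhox5/Tm4sf1/Sdc2 gate. The T cell gates of the Ifnar1-SA library thus held a smaller share of cycling cells by this rule, and the intervals of the last 2 gates overlapped. Cycling cells were also deeper, with median depths of 13115 (WT) and 12696 UMIs (Ifnar1-SA) in CD8 T cells, against 5154 and 5406 in the other CD8 T cells, and the rule finds more cells where depth is higher.

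Histone levels followed this division in both libraries. Over the cells of the 4 gates, the 64 genes summed to 221 CPM in the other cells and 967 CPM in cycling cells of WT (log2 ratio 2.13, 2.08 to 2.17), and to 198 and 697 CPM in Ifnar1-SA (1.81, 1.77 to 1.86). In WT 45 of 55 histone genes with enough UMIs were called higher in cycling cells, beside 13.3% of all genes, and in Ifnar1-SA 40 of 54, beside 14.2%. In WT 1 gene, Hist3h2a, was called lower (6.96% of all genes), and in Ifnar1-SA 0 (4.54%). The median log2 ratios of the histone genes were 2.54 and 2.11, against 0.17 and 0.16 over all genes.

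The copies ranged widely in this ratio. Of 53 genes with enough UMIs in both libraries, the H2A gene Hist1h2af had a log2 ratio of cycling to other cells of 5.26 (3.66 to 7.57) for WT and 4.72 (3.42 to 6.39) for Ifnar1-SA, from 3 and 5 UMIs in other cells, and Hist1h1b of 5.09 and 4.56. Hist1h2ap gave 4.68 and 4.37, and Hist1h2ae 4.58 and 4.05, from 8.26 CPM in other cells to 197 CPM in cycling cells of WT and from 5.21 to 86.0 CPM in Ifnar1-SA. The intervals of Hist1h2af hold the values of these 3 genes, so that the order among the 4 is not resolved. Hist1h3c gave 4.37 and 3.55. At the other end, Hist3h2a was below 0 in both libraries, at -1.17 (-1.38 to -0.96) and -0.50 (-0.70 to -0.30), so that its level was higher in the other cells. Hist1h2bc gave -0.46 and 0.22, Hist4h4 -0.20 and 0.27, Hist3h2ba 0.35 and 1.04, Hist2h2be 0.40 and 0.86, and Hist1h1c 0.41 and 0.58. Hist1h4i lay between, at 2.34 and 1.90. Of the lowest 5 genes in WT, 4 lie outside the chromosome 13 cluster. This did not hold in Ifnar1-SA, where 3 genes of that cluster, Hist1h4n, Hist1h2bc and Hist1h1c, were among the lowest 5 of the 53. Hist1h4n gave 1.24 (0.26 to 2.27) in WT and -0.08 (-1.33 to 1.07) in Ifnar1-SA.

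The gates differed in where the low ratios came from. In the macrophage gate Hist3h2a stood at 40.7 CPM in other cells and 19.4 CPM in cycling cells of WT (log2 ratio -1.07, -1.36 to -0.78) and at 29.8 and 19.1 CPM in Ifnar1-SA (-0.64, -0.91 to -0.38), while in CD8 T it stood at 9.64 and 11.3 CPM in WT and at 13.9 and 14.2 CPM in Ifnar1-SA. In the Rhox5/Tm4sf1/Sdc2 gate it was Hist1h2bc that was low in cycling cells, at 135 and 63.7 CPM in WT (-1.09, -1.27 to -0.90) and 132 and 80.6 CPM in Ifnar1-SA (-0.71, -0.88 to -0.54). The H2B class of that gate accordingly had ratios of -0.22 (-0.38 to -0.07) and -0.24 (-0.38 to -0.09), where H2A had 2.82 and 2.01. In CD8 T the H2B ratios were 1.5 and 1.47, and the H2A ratios 3.75 and 2.58, in WT and Ifnar1-SA.

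**Figure D3:**
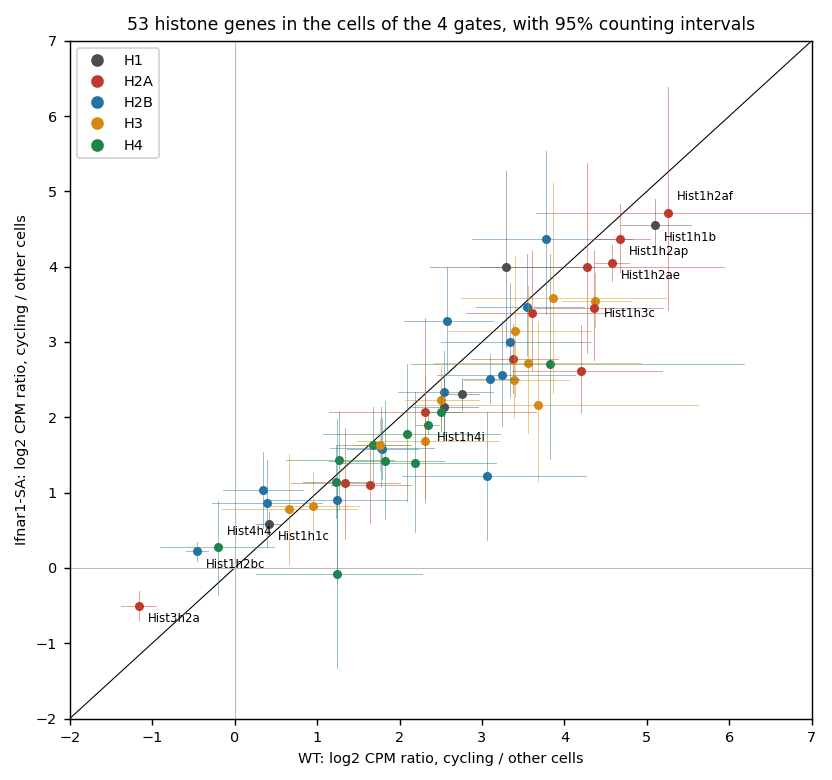
Log2 ratio of CPM in cycling to other cells of the 4 gates in WT (x axis) and Ifnar1-SA (y axis) for the 53 histone genes with at least 30 UMIs in each library, coloured by class; bars are 95% counting intervals and the diagonal is equality. Most genes lie between 1 and 5 on both axes, Hist3h2a lies below 0 on both, and Hist1h2ae lies at 4.58 and 4.05.

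The ratio also differed with the annotated 3′ end. The 22 genes whose longest transcript stops within 100 bases of the stem-loop had a median log2 ratio of cycling to other cells of 3.38 in WT (17 of 19 with enough UMIs called higher, beside 13.3% of all genes) and 2.67 in Ifnar1-SA (16 of 18, beside 14.2%). The 22 genes annotated over 100 bases past it had medians of 1.78 (14 of 20) and 1.43 (12 of 21), and the 20 genes with no stem-loop match 3.34 (14 of 16) and 2.34 (12 of 15). Hist1h2ae, with 151 bases past its loop, was the highest of the second group in both libraries. Genes with no match are not shown to lack the loop, because the annotated transcripts of some may end before it. These are medians over few genes of 2 libraries and were not tested.

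The libraries also differed in the Hist1h2ae and Hist1h2ap pair within cycling cells. The pair was set apart after its values over all cells were seen, and most of its UMIs lie in cycling cells. Hist1h2ae had 3503 UMIs in cycling and 208 in other cells of the 4 gates in WT, and 1368 and 165 in Ifnar1-SA. Its values in cycling cells, and in parts of them below, thus largely reuse the same counts and are no separate support. In cycling CD8 T cells the 64 genes summed to 1020.1 (WT) and 715 CPM (Ifnar1-SA) (log2 ratio -0.51, -0.59 to -0.44), in Treg to 968 and 689 CPM (-0.49), in the macrophage gate to 838 and 684 CPM (-0.29) and in the Rhox5/Tm4sf1/Sdc2 gate to 953 and 608 CPM (-0.65, -0.71 to -0.59). The pair alone gave -1.31 (-1.48 to -1.14), -1.01 (-1.21 to -0.82), -0.94 (-1.06 to -0.81) and -1.54 (-1.68 to -1.40), and the other 62 genes -0.28 (-0.36 to -0.19), -0.37 (-0.46 to -0.28), -0.11 (-0.17 to -0.04) and -0.41 (-0.48 to -0.35). In the other cells the sums were 189 and 172 CPM in CD8 T (-0.14, -0.27 to -0.01), 154 and 159 CPM in Treg (0.05, -0.14 to 0.24), 210.0 and 175 CPM in the macrophage gate (-0.26) and 320 and 338 CPM in the Rhox5/Tm4sf1/Sdc2 gate (0.08, -0.03 to 0.18). The gap of the summed 64 genes in the T cell gates and the Rhox5/Tm4sf1/Sdc2 gate was thus wide in cycling cells and within 0.14 of 0 in the others. In those other cells Hist1h2ae alone gave -0.81 (-1.50 to -0.14) in CD8 T, from 57 WT and 30 Ifnar1-SA UMIs. It gave 0.23 (-0.72 to 1.26) in Treg, from 14 and 31 UMIs, and -0.74 (-1.47 to -0.03) in the Rhox5/Tm4sf1/Sdc2 gate, from 42 and 30 UMIs. With cells thinned to 2000 UMIs and called cycling on the thinned counts, the sums in cycling cells gave -0.27 (-0.55 to 0.01), -0.17 (-0.49 to 0.16), 0.0037 (-0.28 to 0.29) and -0.25 (-0.80 to 0.30).

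In cycling CD8 T cells 3 of 39 histone genes were called lower in Ifnar1-SA, Hist1h2ae, Hist1h2ag and Hist1h2ap (0.538% of all genes). In cycling Treg cells 2 of 31 were called lower (0.849%) and in cycling macrophage gate cells 2 of 46 (0.573%), in both cases Hist1h2ae and Hist1h2ap. In cycling cells of the Rhox5/Tm4sf1/Sdc2 gate 5 of 34 were called lower, Hist1h1e, Hist1h2ae, Hist1h2ap, Hist1h3b and Hist1h4h (0.742%). No histone gene was called higher in cycling cells (3.41%, 2.71%, 0.742% and 0.314% of all genes). Hist1h2ae stood at 216 and 88.8 CPM in cycling CD8 T cells (-1.28, -1.48 to -1.08), 142 and 74.8 CPM in Treg (-0.92, -1.16 to -0.69), 165 and 90.9 CPM in the macrophage gate (-0.86, -1.0 to -0.71) and 198 and 68.6 CPM in the Rhox5/Tm4sf1/Sdc2 gate (-1.53, -1.69 to -1.37). Hist1h1b, with cycling ratios of 5.09 and 4.56, gave 47.9 and 52.9 CPM in cycling CD8 T cells (0.14, -0.16 to 0.44), 37.3 and 48.7 CPM in Treg (0.38, 0.01 to 0.76) and 55 and 62 CPM in the macrophage gate (0.17, -0.03 to 0.38). It was lower in Ifnar1-SA in the Rhox5/Tm4sf1/Sdc2 gate only, at 93.1 and 56.5 CPM (-0.72, -0.92 to -0.53).

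The share of cells with a Hist1h2ae UMI was compared after each cycling cell had been thinned to 2000 UMIs. For CD8 T cells these shares were 28.9% (24.1 to 34.0%, WT) and 16.9% (11.7 to 23.2%, Ifnar1-SA), against 63.0% and 46.4% before thinning. In Treg it was 17.5% and 17.2% (53.7% and 45.8% before), in the macrophage gate 21.5% and 16.2% (58.5% and 47.5%) and in the Rhox5/Tm4sf1/Sdc2 gate 18.2% and 14.7% (66.7% and 58.9%). After thinning the intervals were apart in CD8 T cells alone, and at most 2 cells of a gate and library fell below 2000 UMIs and were left out. For Hist1h2ap the thinned shares were 14.3% and 5.06% in CD8 T, 15.6% and 5.21% in Treg, 12.5% and 6.28% in the macrophage gate, and 10.1% and 4.21% in the Rhox5/Tm4sf1/Sdc2 gate.

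**Figure D4:**
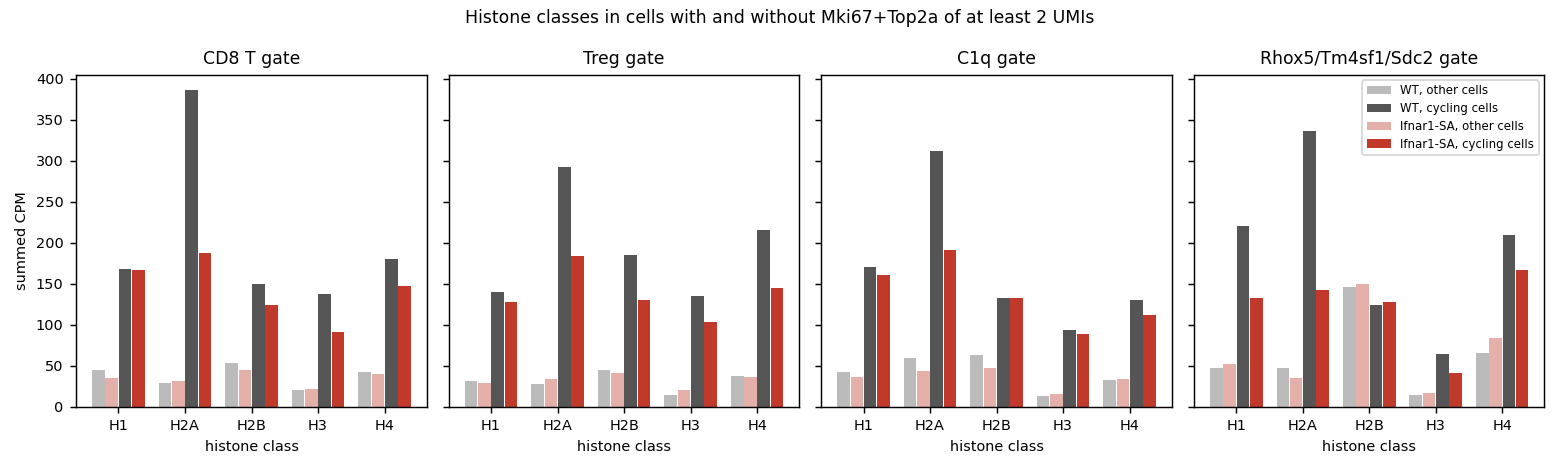
Summed CPM (y axis) of each histone class (x axis) in cycling cells (dark bars) and other cells (light bars) of the WT and Ifnar1-SA libraries, 1 panel per gate and 1 library per bar. H2A in cycling cells shows the widest gap between libraries, 386 against 187 CPM in CD8 T, and H2B of the Rhox5/Tm4sf1/Sdc2 gate is about as high in other cells as in cycling cells.

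Cycling cells were divided further at the median of the summed CPM of 25 S phase genes in each gate. Of the cycling CD8 T cells 53.9% in WT and 42.5% in Ifnar1-SA lay at or above it, of Treg 54.3% and 46.4%, of the macrophage gate 52.9% and 47.8%, and of the Rhox5/Tm4sf1/Sdc2 gate 51.5% and 48.4%. In these S-high cells the pair stood at 354 (WT) and 175 CPM (Ifnar1-SA) for CD8 T (log2 ratio -1.02, -1.26 to -0.79), with -0.98 (-1.25 to -0.72) in Treg, -0.98 (-1.14 to -0.82) in the macrophage gate and -1.60 (-1.75 to -1.44) in the Rhox5/Tm4sf1/Sdc2 gate. The other 62 genes gave -0.11 (-0.24 to 0.01), -0.23 (-0.36 to -0.11), 0.03 (-0.06 to 0.12) and -0.46 (-0.54 to -0.38). Among S-high cells, then, the gap of the pair lay between -1.60 and -0.98, near that among all cycling cells in 3 gates and narrower in CD8 T, while that of the other 62 genes was near 0 in CD8 T and the macrophage gate.

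Genes of the cell cycle were also lower in the Ifnar1-SA library in some gates. In CD8 T cells all 25 S phase genes were below 0 with a median log2 ratio of -0.50. Of them 2 were called lower, Rrm2 and Dut, both of nucleotide synthesis, beside 1.17% of all genes. All 21 G2/M genes were also below 0, with a median of -0.63 and 6 called lower, beside the same 1.17%. Among these 6 were Top2a at 281 and 156 CPM (-0.85, -0.95 to -0.75) and the mitotic kinase gene Cdk1 at 112 and 60.0 CPM (-0.90, -1.06 to -0.75). In Treg the S phase and G2/M medians were -0.36 and -0.38, with 0 called. In the macrophage gate they were -0.00 and 0.01, with 0 called, and in the Rhox5/Tm4sf1/Sdc2 gate -0.08 and -0.41, with 0 called. The S phase genes of that last gate ranged from -0.51 to 0.92, with 15 of 25 below 0. The replication clamp gene Pcna stood there at 160 and 166 CPM (0.06, -0.04 to 0.16).

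Histone genes listed as not tied to replication differed less by their median. Of the 11 replication-independent variants, 10, 9, 10 and 10 had enough UMIs in CD8 T, Treg, the macrophage gate and the Rhox5/Tm4sf1/Sdc2 gate. Their medians were -0.27, -0.22, -0.05 and -0.19 in that order, with 0 called in any. Single variants differed more: H1fx gave -1.28 (-2.08 to -0.54) in CD8 T and H1f0 -0.77 (-1.01 to -0.54) in Treg. Within cycling Treg cells H1f0 was called lower (0.849% of all genes). H2afz, which encodes the variant H2A.Z, stood at 1170 and 1012 CPM in CD8 T (-0.21, -0.25 to -0.17) and at 1283 and 1287 CPM in the Rhox5/Tm4sf1/Sdc2 gate (0.01, -0.03 to 0.04). H3f3b, which encodes H3.3, stood at 1654 and 1575 CPM in CD8 T (-0.07, -0.10 to -0.04). Of the 16 genes of histone mRNA transcription and 3′ end processing, 15 had enough UMIs in each gate, with medians of -0.21, 0.01, 0.08 and -0.03 and 0 called. Slbp, the stem-loop binding protein gene, stood at 132 and 105 CPM in CD8 T (-0.34, -0.46 to -0.21), 131 and 113 CPM in Treg (-0.21), 61 and 64 CPM in the macrophage gate (0.07) and 71.7 and 73.4 CPM in the Rhox5/Tm4sf1/Sdc2 gate (0.03). The 22 histone chaperone genes had medians of -0.19, -0.20, 0.14 and -0.02. Daxx, a chaperone of H3.3, was the 1 gene of these 3 lists called over all cells of a gate. It was higher in Ifnar1-SA Treg cells (beside 1.31% of all genes) at 25.9 and 51.3 CPM (0.99, 0.70 to 1.29).

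The histone genes were also present in barcodes with under 100 UMIs, which mostly hold free RNA rather than cells. There they summed to 627 (WT) and 438 CPM (Ifnar1-SA) (log2 ratio -0.52), and 3 of 33 were called lower, Hist1h2ae, Hist1h2ap and Hist1h4h (0.528% of all genes), and 0 higher (0.721%). Hist1h2ae stood at 101 and 37.7 CPM there (-1.42) and Hist1h2ap at 39.5 and 14.8 CPM (-1.41), gaps of the size seen in the gates. The pair made up 22.4% of the histone UMIs of these barcodes in WT and 12% in Ifnar1-SA. The part of free RNA in the gate results was not tested.

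The 2 libraries differed in the sex of their cells. Of the 4058 kept WT barcodes 3714 had Xist UMIs and no Y-linked UMIs, whereas the Ifnar1-SA library held 3327 such barcodes and 537 with Y-linked but no Xist UMIs. Hist1h2ae and Hist1h2ap summed to 96.8 CPM (93.7 to 99.99) in the Xist-only barcodes of WT, to 37.3 CPM (35.2 to 39.4) in those of Ifnar1-SA and to 44.2 CPM (37.7 to 51.6) in the Y-linked-only barcodes of Ifnar1-SA. The other 62 genes summed to 359, 274 and 388 CPM. The pair was thus lower than in WT in both kinds of Ifnar1-SA barcode, and the other 62 genes in the Xist-only kind. The part of cell sex in the results was not tested. Genotype, animal and library cannot be told apart with 1 library each.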

How the data were processed

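Single-cell RNA was measured in 2 10x libraries, 1 WT and 1 Ifnar1-SA. The deposited matrices hold raw UMI counts per gene and barcode made by Cell Ranger 4, per the file headers, on mm10, as the submitters' processing notes state. The sources used here do not name the annotation release or the handling of reads matching several genes. The matrices hold all barcodes, not cells only.

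Barcodes were kept from 1000 UMIs and 500 genes upward if no more than 10% of UMIs were mitochondrial. Counts were summed over the cells of a gate and given as CPM of that sum. Sums of the libraries were compared by a log2 ratio with the 95% exact conditional binomial interval, and shares by Clopper-Pearson intervals, without p-values. A gene needed 30 UMIs over both libraries and was called when its interval lay outside 1.5-fold. The interval rule was tested on simulated Poisson counts. These follow the model of the interval and hold no spread between cells, animals or libraries, so the simulation says nothing about such spread. The histone genes, gates and comparison lists were chosen with earlier results of these data known.

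Genes were named where they were among the 10 with the most UMIs in a gate, led their class, were called, or had the 5 highest or lowest cycling ratios. Hist1h2bg, Hist1h2br and the list genes Daxx, Rrm2, Pcna, H1fx and H1f0 were named after their values were seen. Doublets stayed in: Scrublet's automatic threshold marked 0.123% and 0.06% of barcodes and so did not work, and the 156 and 201 barcodes of highest score were removed as an alternative. Stem-loops and spans were read from GENCODE M21 and promoters from RefSeq GRCm38.p6. Python 3.11.15, numpy 2.4.6, scipy 1.17.1, pandas 2.3.3 and scanpy 1.11.5 were used.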

Additional observations from a re-analysis of the deposited data

How the results depend on the processing

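No paired analysis was possible because each genotype has 1 library and the labels give no replicate numbers. Of 104 alternative values of the sums and counts, 65 stayed within the interval of the first value or 1.5 times the count, 38 moved and 1 reversed; of 339 for classes and named genes, 296, 38 and 5. The 40 values of Hist1h2ae ranged from -1.75 to -0.43 and the 40 of Hist1h2ap from -2.35 to -1.17. The causes of the moves were not tested.

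With cells thinned to 2000 UMIs the summed log2 ratio was -0.51 in CD8 T, -0.23 in the macrophage gate and -0.41 in the Rhox5/Tm4sf1/Sdc2 gate, and 2, 1, 1 and 0 genes were called lower in CD8 T, Treg, macrophage and Rhox5/Tm4sf1/Sdc2 gates (0.547%, 0.329%, 0.722% and 0.25% of all genes). Thinned cycling cells gave -0.27, -0.17, 0.0037 (reversed) and -0.25. Xist-only cells gave -0.80 in CD8 T, -0.41 in the macrophage gate and -0.36 in the Rhox5/Tm4sf1/Sdc2 gate. Equal weight per cell gave -0.50, -0.28 and -0.49 in these 3. Cells of 1 gate only gave -0.66 in Treg, and in cycling cells -0.32 in CD8 T, -0.32 in Treg and -0.20 in the macrophage gate. Centring on the median of all genes gave -0.40 in the macrophage gate. Calls outside 2-fold numbered 2, 1, 0 and 2 (0.44%, 0.278%, 0.421% and 0.309%). Cycling cells by 5 UMIs gave -0.35 in the macrophage and -0.58 in the Rhox5/Tm4sf1/Sdc2 gate, and by S phase genes -0.72 in CD8 T, -0.37 in the macrophage and -0.57 in the Rhox5/Tm4sf1/Sdc2 gate. Without Hist1h2ae and Hist1h2ap, an alternative chosen after seeing the data, the sums were -0.48, -0.47, -0.21 and -0.32, and in cycling cells -0.28, -0.37, -0.11 and -0.41.

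Reversals among classes and genes were H4 in the macrophage gate (0.0622 thinned, 0.0401 with equal weight) and, in Xist-only cells of the Rhox5/Tm4sf1/Sdc2 gate, H3 (0.0335), H4 (0.10) and Hist1h1b (0.0879). Thinned Hist1h3b in that gate gave no value. Depth limits the copies under 30 UMIs, which were not compared.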
